A study of Mus musculus with 18 samples.

Results

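The comparison is between wild type CD4+ effector T cells taken from the colon lamina propria, the connective tissue under the colonic epithelium, and wild type cells of the same kind taken from the spleen. It rests on 6 of the 18 libraries of the study, 3 from colon and 3 from spleen, chosen by their labels. All of these cells came from C57BL/6 mice, carried CD45.1 (a marker variant of the leukocyte protein encoded by Ptprc), and had been transferred into Rag-deficient hosts, whose own lymphocytes do not develop. They were sorted at 3 weeks, about 500 cells per library. The hosts' ages and the number of hosts behind a library are not stated. The p-values below therefore measure the spread between libraries, estimated over all 18 unless stated otherwise, and not a known spread between hosts. The other 12 libraries hold wild type cells of the small intestine lamina propria and C57BL/6 Nr1i3-/- cells of all 3 organs, which lack CAR, the receptor for foreign compounds encoded by Nr1i3. They served for the shared estimate of spread and for the side comparisons given last.

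T cells passed into a host with no lymphocytes divide, become effector cells and enter the intestinal wall, where they meet bacterial antigen and can drive colitis. A T cell that signals through its antigen receptor transcribes immediate early genes within minutes, then genes whose products shut the signal down again: inhibitors of NF-kB, phosphatases of MAP kinases and regulators of G protein signalling. Cells that stay in a tissue carry the surface protein CD69, which removes the exit receptor S1PR1, while cells that recirculate carry S1PR1 and CCR7.

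In total, 56 of 14876 genes tested passed an adjusted p of 0.05 between colon and spleen, which is 0.376% of them. Of these, 55 were higher in colon (0.37%) and 1 was lower (0.00672%). The 55 included immediate early factors (Nr4a1, Nr4a2, Nr4a3, Fosb, Fosl2 and Atf3), feedback regulators of NF-kB (Tnfaip3, Nfkbiz and Nfkbia), Dusp5 and Rgs2, Cd69 and Ctla4, and the TGF-beta corepressors Tgif1 and Skil. Their log2 fold changes were at least 1.37 with a median of 3.00, beside a median of 0.015 over all genes tested, and the 4 largest (Sparc, Atf3, Nupr1 and Ccno) rest on few or no counts in most spleen libraries. Levels here are CPM, counts scaled to a common library size with TMM factors, and log2 fold changes are edgeR's, given with their standard error (SE). In each of the 56, no colon library overlapped a spleen library. Among all genes tested, the libraries stood apart in this way with colon higher in 8.09% and with colon lower in 6.9%.

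Libraries are called a, b and c by the ending of their column in the count table. Same-ending libraries of the 2 organs deviated from their group means together, so a fit of all 18 libraries with the ending as a block, here called the blocked fit, is given beside the unblocked one. The blocked fit called 144 genes (0.968%), 136 higher (0.914%) and 8 lower (0.0538%), and they include all 56. DESeq2 called 294 (2.25%) and limma 789 (5.3%), each with all 56 among them. With only the 6 libraries compared and no block, 11 genes were called. With the block and only the 6 libraries compared (the 6-library block), 73 genes were called, 35 of the 56 and 27 of the 88 that the blocked fit added. Calls lost there include Cd69 (adjusted p = 0.0647), Rgs2 (0.173), Atf3 (0.188), Fosl2 (0.201), Nfkbid (0.114), Irf4 (0.0544), Tob1 (0.081), Dnajb4 (0.0774), Kdm6b (0.119) and Nupr1 (0.144). The unblocked count depended on single libraries. It was 13 without spleen library a, 14 without spleen library c, 36 without spleen library b and 34 without colon library b, and 49 and 45 without colon libraries a and c. Of the 56, 12 passed the threshold in all 6 of these fits, 38 in some and 6 in none. Directions could not turn there, since the libraries of these genes do not overlap.

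The T cell genes matched the sort label. Cd4 lay between 128 and 156 CPM and Ptprc between 1282 and 1993 CPM in the 6 libraries, and Cd8a reached at most 2.44 CPM. Total counts ran from 20666562 to 24693829 per library. Libraries a stood apart in both organs, with 15881 and 16089 genes detected against 17662 to 18297 in the others and a mitochondrial share of 3.88% and 3.97% against 2.32% to 3.22%. Without the libraries a of all 6 groups, 124 genes were called (0.81%), 46 of the 56 among them. In receptor beta V segments, libraries a and b of both organs had the same top segment, and the libraries c shared none. Trbv26 made up 67.3% and 57% of all beta V counts in colon libraries a and b and 72% and 57.8% in spleen libraries a and b, whereas no segment passed 21.3% in colon library c or 13.5% in spleen library c.

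Of 19 tested members of a list of immediate early genes, 6 rose in colon, none fell and 13 did not pass. The shares to set beside this and each later list count are 0.37% higher and 0.00672% lower over all genes tested. In the blocked fit these shares are 0.914% and 0.0538%. The blocked fit added Egr1 and Btg2, which the 6-library block did not call (adjusted p = 0.146 and 0.132). All 19 lay above 0, beside 50.9% of all genes tested, with a median log2 fold change of 2.21. Of the 19, 14 had colon libraries wholly above spleen, beside 8.09% of all genes tested. Fewer cells of a type and less RNA per cell cannot be told apart in such bulk libraries. The labels do not state how cells were freed from each organ, so organ and preparation cannot be told apart.

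Nr4a1 encodes an orphan nuclear receptor whose transcription follows the strength of antigen receptor signalling. It stood at 92.1, 121 and 189 CPM in colon libraries a, b and c and at 2.99, 6.01 and 1.43 CPM in the spleen libraries. The lowest colon value was thus many times the highest spleen value. Its log2 fold change was 5.26 (SE 0.67, adjusted p = 0.0014), and it passed in all 6 fits that left out 1 library. Its relatives, which bind the same DNA element, were higher too but varied more within the colon. Nr4a3 was at 307, 95.3 and 75.8 CPM in colon and 14.8, 5.56 and 8.26 CPM in spleen (log2 fold change 4.06, SE 0.81, adjusted p = 0.0419). Nr4a2 was at 260, 243 and 92.5 CPM in colon and 8.75, 30.2 and 4.68 CPM in spleen (3.77, SE 0.76, adjusted p = 0.0426). Nr4a3 passed in 1 of the 6 fits without a library and Nr4a2 in 2, with adjusted p up to 0.294 and 0.272.

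The AP-1 members divided. Fosb, a partner of JUN proteins, was at 265, 134 and 162 CPM in colon against 14, 18.1 and 6.45 CPM in spleen, and its log2 fold change was 3.86 (SE 0.57, adjusted p = 0.00577). Fosl2 was at 81, 39.6 and 22.9 CPM in colon against 0.138, 1.8 and 1.52 CPM in spleen (5.36, SE 0.95, adjusted p = 0.0155). Atf3, a stress-responsive repressor, was at 35.1, 23.2 and 86.6 CPM in colon. In spleen it was read in library b alone, at 0.777 CPM (adjusted p = 0.0113). Its fitted log2 fold change of 7.49 rests on that library and was 13.06 without it, and the adjusted p reached 0.0838 in fits without another spleen library. Fos and the JUN genes did not pass. Fos itself was already abundant in spleen, at 111, 420 and 119 CPM, against 435, 737 and 1149 CPM in colon (1.84, adjusted p = 0.324). Jun overlapped between the organs, with 42, 67.6 and 101 CPM in colon and 35.4, 64.9 and 23.5 CPM in spleen. Egr1 stood at 144, 115 and 143 CPM in colon against 18.1, 51.4 and 17.3 CPM in spleen, with adjusted p = 0.0693 unblocked and 0.0422 blocked.

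**Figure D1:**
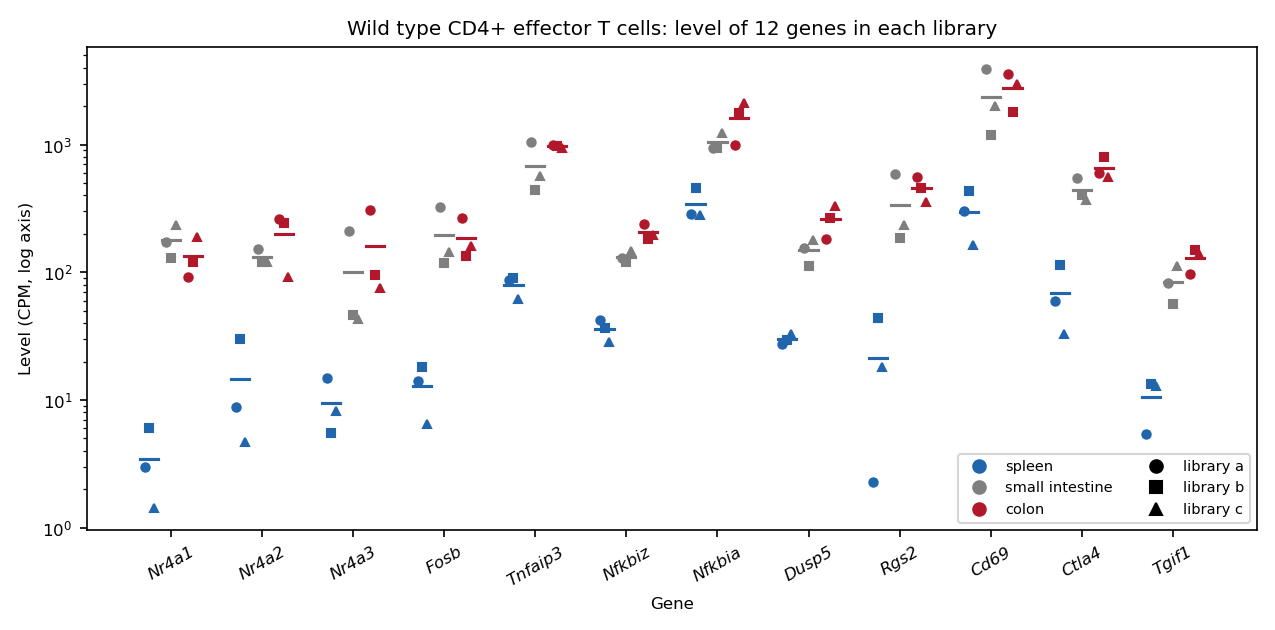
Level of 12 genes in each wild type library, in CPM on a log axis, for spleen (blue), small intestine (grey) and colon (red). Symbols mark libraries a, b and c and bars the mean of 3 libraries. For each gene the colon symbols lie above the spleen symbols, as for Nr4a1 at 92.1 to 189 CPM in colon and 1.43 to 6.01 CPM in spleen.

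The promoters of these genes are shown because the genes moved together and are textbook targets of CREB, AP-1 and NF-kB. Sequences are RefSeq's (GRCm38.p6), and motifs were searched on both strands in 250 bases before to 50 after the start site. Of the 55 genes higher in colon, 47 had a promoter in the table. Neither the cAMP response element TGACGTCA nor the AP-1 site TGANTCA was found in the promoters of Nr4a1, Fosb, Atf3 and Fosl2. After that promoter had been read, the related letters TGCGTCA were searched as well. They occur 4 times in the Nr4a1 promoter, all before the start site, and 2.12% of all 32851 promoters in the table hold them at least once. The 250 bases before the start, with the matches in capitals, lie on the plus strand at chr15:101266596-101266845, inside the longer Nr4a1 gene of GENCODE (chr15:101254269-101274795).
Nr4a1: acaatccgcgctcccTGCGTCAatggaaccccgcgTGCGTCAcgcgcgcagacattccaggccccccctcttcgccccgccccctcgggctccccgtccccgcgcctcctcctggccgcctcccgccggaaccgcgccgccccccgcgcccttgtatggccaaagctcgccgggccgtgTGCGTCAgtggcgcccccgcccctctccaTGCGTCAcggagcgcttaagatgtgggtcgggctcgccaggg

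Among the 47 genes, TGACGTCA was found in 4 (8.51%: Arl5b, Errfi1, Nfkbid and Wsb1), against 3.41% of all tested genes with a promoter, and TGANTCA in 4 (8.51%: Frmd4b, Hilpda, Lmna and Tnfaip3), against 6.49%. The letters TGCGTCA were found in 4 (8.51%: Dnajb1, Fosb, Hilpda and Nr4a1), against 4.04%. A 9-letter NF-kB motif, GGGANTTTC, also added after the data were seen, was found in 2 (4.26%: Neurl3 and Nfkbia), against 1.27%. These matches describe letters and show no binding.

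The NF-kB list held 16 tested members, of which 5 rose, none fell and 11 did not pass. Of all genes tested, 0.37% were called higher. The median log2 fold change of the list was 0.76, beside 0.015 over all genes tested. The members that rose encode 4 feedback regulators and 1 subunit. Tnfaip3 encodes A20, the ubiquitin-editing enzyme that ends NF-kB signalling. It was at 985, 972 and 947 CPM in colon and 87.2, 89.7 and 61.8 CPM in spleen, so the colon libraries lay within a few percent of each other and about an order of magnitude above spleen. Its log2 fold change was 3.60 (SE 0.37, adjusted p = 0.000358). Nfkbiz, which encodes a nuclear cofactor of the NF-kB family, was at 237, 182 and 196 CPM against 42.2, 36.4 and 28.7 CPM (2.52, SE 0.28, adjusted p = 0.000606). Both passed in all 6 fits without a library. Nfkbia, which encodes the inhibitor IkB-alpha, was at 984, 1752 and 2119 CPM in colon against 285, 453 and 283 CPM in spleen (2.25, SE 0.35, adjusted p = 0.00843). Nfkbid, another nuclear member of the IkB family, was at 56.4, 79.6 and 136 CPM against 17.9, 22.1 and 15 CPM (2.31, SE 0.47, adjusted p = 0.0468). The subunit gene was Rel, at 184, 101 and 89.3 CPM against 32.9, 25.6 and 23.4 CPM (2.19, SE 0.37, adjusted p = 0.0112). Rel passed in 2 and Nfkbid in 1 of the 6 fits without a library. The other subunit genes overlapped between the organs, with log2 fold changes of 0.34 for Rela, 0.38 for Relb, 0.69 for Nfkb1 and 0.48 for Nfkb2.

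The promoters of the inhibitor genes Nfkbia and Tnfaip3 are given for their motif matches, in capitals, again as the 250 bases before the start. The Nfkbia promoter (minus strand, chr12:55492648-55492897) holds GGGANTTTC once on each strand, at bases -113 to -105 and -28 to -20 from the start site. The upstream one of 2 listed Tnfaip3 promoters (minus strand, chr10:19015411-19015660) holds TGANTCA at bases -136 to -130 and no GGGANTTTC. That string is narrow. Near variants of it were not searched, such as the letters GGAATTTCC that stand in the Tnfaip3 stretch below.
Nfkbia: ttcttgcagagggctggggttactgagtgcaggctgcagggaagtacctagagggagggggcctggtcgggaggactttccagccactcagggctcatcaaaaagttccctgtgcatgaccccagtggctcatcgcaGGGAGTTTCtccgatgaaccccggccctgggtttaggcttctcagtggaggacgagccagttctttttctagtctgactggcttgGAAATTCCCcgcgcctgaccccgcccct
Tnfaip3: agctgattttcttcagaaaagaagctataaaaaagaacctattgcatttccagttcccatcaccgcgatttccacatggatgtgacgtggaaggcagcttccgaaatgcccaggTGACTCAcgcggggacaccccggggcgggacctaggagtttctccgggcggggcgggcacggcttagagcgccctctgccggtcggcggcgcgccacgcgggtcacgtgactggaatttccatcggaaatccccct

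MAP kinase phosphatases remove the activating phosphates that antigen receptor signalling places on ERK, p38 and JNK. Of 9 tested, 1 rose, none fell and 8 did not pass. All 9 had colon libraries wholly above spleen, beside 8.09% of all genes tested, and the median log2 fold change of the 9 was 2.48. Dusp5, an ERK phosphatase of the nucleus, was at 183, 267 and 330 CPM in colon against 27.5, 29.3 and 33.1 CPM in spleen (3.12, SE 0.38, adjusted p = 0.0014), and it passed in all 6 fits without a library. The blocked fit added Dusp1, at 428, 1118 and 1151 CPM against 76.6, 269 and 48.1 CPM (adjusted p = 0.04, unblocked 0.117), and Dusp10 (0.0432, unblocked 0.23), with adjusted p = 0.139 and 0.0748 in the 6-library block. Among 7 regulators of G protein signalling, which blunt chemokine receptor signals, Rgs2 rose, at 553, 457 and 354 CPM against 2.3, 43.7 and 18.1 CPM (4.41, SE 0.75, adjusted p = 0.0112), and 6 did not pass. The blocked fit added Rgs16 (adjusted p = 0.046, unblocked 0.198, and 0.0866 in the 6-library block). Rgs1 was at 1313, 1353 and 1646 CPM in colon and 804, 724 and 284 CPM in spleen (1.25, adjusted p = 0.306).

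**Figure D2:**
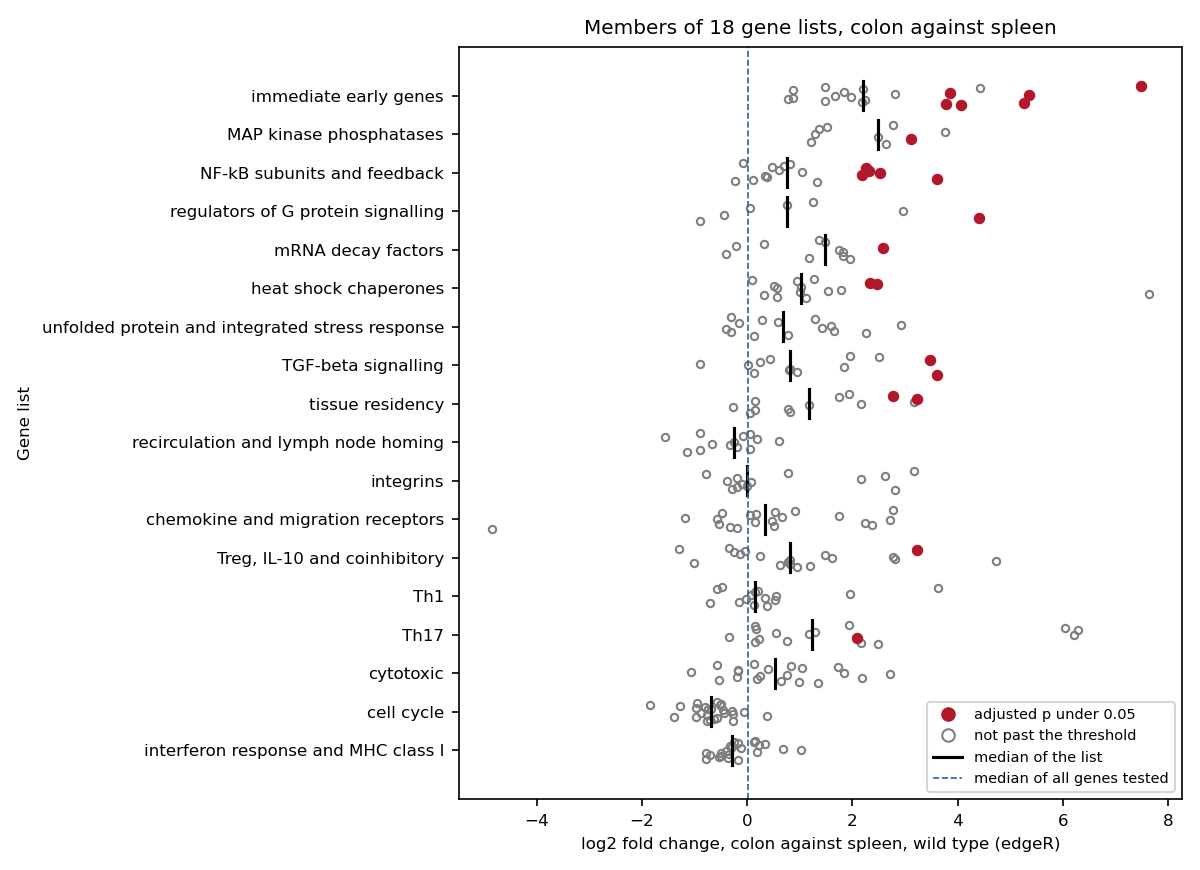
Log2 fold change of each tested member of 18 gene lists, colon against spleen in wild type cells. Filled points passed the threshold, open points did not, black bars are list medians and the dashed line is the median over all genes tested (0.015). Among these 18 of the 39 lists, immediate early genes and MAP kinase phosphatases have the rightmost medians, 2.21 and 2.48. Cell cycle genes have the leftmost, -0.69. Marker lists of other cells, not drawn, had medians further out. They were 4.56 for stromal, endothelial and glial, 2.90 for epithelial and -7.99 for red cell and platelet markers.

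Tissue residency genes gave 2 called of 13 tested, both higher, beside 0.37% called higher among all genes tested. The median log2 fold change of the list was 1.17, beside 0.015 over all genes tested. Cd69 was at 3594, 1786 and 2983 CPM in colon and 301, 433 and 163 CPM in spleen (3.22, SE 0.53, adjusted p = 0.0102). Bhlhe40, a repressor that supports effector T cell cytokine production and tissue residency, was at 699, 818 and 808 CPM against 70.1, 164 and 106 CPM (2.77, SE 0.35, adjusted p = 0.0014). Cd69 passed in 4 of the 6 fits without a library and Bhlhe40 in all 6. The integrin gene Itgae, which encodes CD103, was at 5.91, 10.1 and 74.8 CPM in colon and 1.29, 1.02 and 18 CPM in spleen, higher in libraries c of both organs (adjusted p = 0.754). Cxcr6 overlapped, at 553, 620 and 1345 CPM against 818, 823 and 625 CPM.

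The recirculation genes did not mirror Cd69. None of 13 passed, and their median was -0.25. Below 0 lay 9 of them, while 50.9% of all genes tested lay above 0. S1pr1 was at 63.3, 32.7 and 92.6 CPM in colon and 53.3, 58.7 and 123 CPM in spleen (-0.32, SE 0.65, adjusted p = 1). Klf2, the factor that drives S1pr1, was at 209, 108 and 230 CPM against 89.5, 89.9 and 179 CPM (0.61, SE 0.49, adjusted p = 0.989). Ccr7 (0.06, SE 1.59) also overlapped between the organs. The lowest p belonged to Lef1, at 57, 64.4 and 45.8 CPM in colon and 90.9, 70.5 and 104 CPM in spleen (-0.67, adjusted p = 0.647). Nor did any of 13 integrin genes pass. Itga4, the alpha chain of the gut-homing integrin, was at 137, 191 and 135 CPM in colon and 275, 279 and 240 CPM in spleen (-0.78, SE 0.25, adjusted p = 0.364). Its partner Itgb7 overlapped.

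Of 20 chemokine and migration receptors none passed unblocked, and 3 rose in the blocked fit. Gpr183, a receptor for oxysterols, was at 214, 154 and 420 CPM in colon and 48.1, 35 and 68.7 CPM in spleen (2.38, SE 0.54, adjusted p = 0.0844 unblocked and 0.00503 blocked). Cxcr4 was at 74, 24.3 and 19.7 CPM against 10.4, 3.43 and 4.09 CPM (adjusted p = 0.159 and 0.00577), and Ccr2 at 325, 248 and 308 CPM against 122, 160 and 191 CPM (0.184 and 0.028). In the 6-library block Gpr183 was called (adjusted p = 0.0225), and Cxcr4 (0.0545) and Ccr2 (0.201) were not. The gut-homing receptors stayed low or overlapped. Ccr9 lay between 1.76 and 9.91 CPM in all 6 libraries. Gpr15, a colon-homing receptor, was at 0, 0.984 and 50.3 CPM in colon and 1.38, 1.88 and 7.67 CPM in spleen, high in colon library c alone (adjusted p = 1).

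TGF-beta signalling, which is abundant in the intestinal wall, gave 2 genes higher of 13 tested and none lower. Of all genes tested, 0.37% were called higher. Both called members of the list encode corepressors that bind SMAD proteins. Tgif1 was at 96.7, 150 and 138 CPM in colon and 5.39, 13.3 and 12.8 CPM in spleen (3.61, SE 0.51, adjusted p = 0.00417), and it passed in all 6 fits without a library. Skil was at 164, 177 and 101 CPM against 7.55, 22 and 9.91 CPM (3.48, SE 0.57, adjusted p = 0.0102). Without the libraries a, 3 of the list were called. The feedback genes Pmepa1 (2.50, SE 0.57, adjusted p = 0.0844) and Smad7 (1.84, SE 0.53, adjusted p = 0.264) had all colon libraries above spleen. Smad3 had all below, at 12, 23.6 and 21.3 CPM in colon and 31.6, 32.5 and 42.1 CPM in spleen (-0.90, SE 0.30, adjusted p = 0.381). Of the 13 tested, 5 had colon wholly above spleen and 1 wholly below. Among all genes tested these shares were 8.09% and 6.9%.

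Ctla4, the coinhibitory receptor that competes with CD28, was the 1 gene called among 19 regulatory and coinhibitory genes. It was at 597, 795 and 560 CPM in colon and 60.1, 115 and 32.8 CPM in spleen (3.23, SE 0.53, adjusted p = 0.0102). It passed in 4 of the 6 fits without a library and not without the libraries a (adjusted p = 0.0845). The blocked fit added Il10, at 417, 237 and 90.9 CPM in colon against 60.4, 42.1 and 6.28 CPM in spleen (adjusted p = 0.44 unblocked and 0.0184 blocked), and Icos (0.306 and 0.0114). Both genes were highest in library a and lowest in library c of each organ. Foxp3, the factor of regulatory T cells, was at 3.67 CPM in colon library c and 0 in colon libraries a and b. In spleen it was at 4.26 CPM in library c and at most 0.164 CPM in a and b. Whether regulatory T cells add to the levels of Ctla4 and Il10 was not tested. A count of 3 corresponds to 0.136 to 0.169 CPM in the colon libraries.

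Effector cytokines gave no unblocked call among 22 tested, with a median of 1.34 and 20 above 0, beside 50.9% of all genes tested. Ifng was at 2835, 1450 and 1421 CPM in colon and 618, 601 and 242 CPM in spleen (1.96, SE 0.64, adjusted p = 0.366 unblocked, 0.00651 blocked and 0.0597 in the 6-library block). Cxcl10, a chemokine induced by interferon, was at 229, 192 and 288 CPM against 21.9, 30.7 and 14.3 CPM (3.41, SE 0.75, adjusted p = 0.0743 and 0.016). Tnf was at 41.2, 61.2 and 93.9 CPM against 17, 36.1 and 20.6 CPM (1.41, adjusted p = 0.383). Il22 was at 157, 8.67 and 110 CPM in colon and at most 3.16 CPM in spleen (adjusted p = 0.44). Il17a was read in colon libraries a and c, at 7.99 and 9.89 CPM, and at most 0.211 CPM in spleen (adjusted p = 0.701). Irf4, a factor induced by antigen receptor signalling, was the 1 called member of the Th17 list, at 81, 58.9 and 81.6 CPM in colon and 17.3, 19.1 and 15.7 CPM in spleen (2.09, SE 0.42, adjusted p = 0.0419), and it passed in none of the 6 fits without a library. Of 15 Th1 genes none passed unblocked. Of 20 cytotoxic genes the blocked fit called Fasl (adjusted p = 0.0184, unblocked 0.218) and Srgn (0.00651, unblocked 0.264, and 0.104 in the 6-library block), while Gzmb overlapped at 1213, 1725 and 949 CPM against 1302, 1247 and 390 CPM.

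Chaperones gave 2 of 15 higher and none lower, beside 0.37% called higher among all genes tested. The median of the list was 1.03, beside 0.015 over all genes tested. All 15 lay above 0, beside 50.9% of all genes tested. Dnajb1, a cofactor of HSP70, was at 316, 471 and 346 CPM in colon and 54.1, 85.8 and 84 CPM in spleen (2.34, SE 0.40, adjusted p = 0.0113). Dnajb4 was at 53.1, 77.8 and 89.1 CPM against 12, 19.6 and 8.47 CPM (2.46, SE 0.48, adjusted p = 0.0349). Hsp90aa1 was called in the blocked fit (1.03, adjusted p = 0.0788 unblocked, 0.00482 blocked and 0.0545 in the 6-library block). The HSP70 genes Hspa1a and Hspa1b, near-identical copies whose reads cannot be split with certainty, lay at 1.78 and 1.54 (adjusted p = 0.289 and 0.264). In the unfolded protein response none of 14 passed unblocked, and Hspa5, the chaperone BiP, was at 1589, 1786 and 1628 CPM against 449, 901 and 511 CPM (1.43, SE 0.30, adjusted p = 0.0507 unblocked, 0.00379 blocked and 0.0554 in the 6-library block). The mRNA decay factors, which shorten the life of cytokine transcripts, gave 1 of 11 unblocked and 7 blocked. Tob1, an adaptor of the CCR4-NOT deadenylase that restrains T cell proliferation, was at 90.9, 69.9 and 92.3 CPM in colon and 6.63, 13.7 and 21.6 CPM in spleen (2.59, SE 0.40, adjusted p = 0.00805). The blocked fit added Tob2, Btg1, Btg2, Zc3h12a, Zfp36l1 and Zfp36l2, with adjusted p from 0.0106 for Zfp36l2 to 0.0468 for Btg2, and of these the 6-library block called Btg1 alone (adjusted p = 0.0366).

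Of the 55 genes higher in colon, 33 belonged to no list. Of the genes described here, Klf4, Rgcc and Nupr1 were named by size of change, and the others were chosen after their values were seen. Hilpda, a lipid droplet protein induced by hypoxia, had the lowest p of all genes. It was at 173, 120 and 139 CPM in colon and 23.2, 21.8 and 18.1 CPM in spleen (2.77, SE 0.28, adjusted p = 0.000358). Of the glycolysis and hypoxia list, which leaves Hilpda out, none of 25 passed. Dennd4a was at 237, 202 and 198 CPM against 12.4, 19.4 and 19.3 CPM (3.64, SE 0.44, adjusted p = 0.00136). Klf4, a factor that holds T cells in quiescence, was at 53.4, 25.4 and 24.2 CPM against 1.38, 2.17 and 1.26 CPM (4.41, SE 0.60, adjusted p = 0.0029), and Klf6 at 552, 1008 and 987 CPM against 77.4, 228 and 156 CPM (2.46, adjusted p = 0.0112). Rgcc, a regulator of the cell cycle, was at 489, 222 and 290 CPM against 11.1, 16 and 30.2 CPM (4.13, adjusted p = 0.0133). Nupr1, a stress-induced chromatin protein, was at 41.3, 14.2 and 16.8 CPM in colon and at most 0.286 CPM in spleen (adjusted p = 0.0218). Mxd1, an antagonist of MYC, was at 124, 235 and 92.6 CPM against 9.81, 25.7 and 12.7 CPM (3.22, adjusted p = 0.00681). Crem, a modulator of cAMP-driven transcription, was at 682, 692 and 181 CPM against 68.6, 36.1 and 34 CPM (3.49, SE 0.65, adjusted p = 0.025), and Pde4b, which breaks down cAMP, at 248, 272 and 250 CPM against 72.3, 85.7 and 63.2 CPM (1.80, adjusted p = 0.0449). Kdm6b, a histone H3K27 demethylase, was at 73.8, 46.6 and 36.1 CPM against 2.58, 5.68 and 6.87 CPM (3.37, adjusted p = 0.00843). The amino acid transporter genes Slc3a2 (2.08, adjusted p = 0.0112) and Slc38a2 (1.92, adjusted p = 0.0112) rose as well. Genes called under all 16 alternative settings were Hilpda, Tnfaip3, Nfkbiz, Dennd4a, Dusp5, Nr4a1, Ifrd1 and Tgif1, 8 of the 56.

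Cell cycle genes lay lower in colon as a list, though no member passed. Of 25 tested, 24 had a log2 fold change below 0, the median was -0.69, and 9 had colon libraries wholly below spleen against 6.9% of all genes tested. Ccnb2, a mitotic cyclin, was at 88.9, 111 and 131 CPM in colon and 303, 292 and 203 CPM in spleen (-1.27, SE 0.44, adjusted p = 0.408). Mki67, the gene of the proliferation antigen Ki-67, was at 232, 114 and 149 CPM against 272, 327 and 245 CPM (-0.77, SE 0.29, adjusted p = 0.451). Pcna was the 1 member above 0 (0.37, adjusted p = 0.908), where 50.9% of all genes tested lay. The blocked fit called none of the 25 either.

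Further lists with calls in the blocked fit alone were the BCL2 family (Mcl1, Bcl2a1b and Pmaip1 of 14), common gamma chain receptors and SOCS genes (Socs2 of 17) and the TNF superfamily (Fasl of 17). Several lists gave no call in either fit. They were glycolysis and hypoxia (median log2 fold change 0.35), cholesterol synthesis (0.53), interferon response (-0.28), glutathione and antioxidant genes (0.09), ligand-sensing nuclear receptors (0.28), drug transporters and enzymes (0.27), receptor complex genes (0.13), cytosolic ribosomal proteins (0.07), clustered histones (-0.46) and mitochondrially encoded genes (-0.10). Nr1i3 itself was read at 0, 0 and 0.454 CPM in colon and 1.66, 0 and 0.295 CPM in spleen.

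Transcripts of other cells moved with the organ. The 1 gene called lower in colon was Hbb-bt, a beta globin. It had no count in any colon library and was at 108, 194 and 33.1 CPM in spleen (adjusted p = 0.0399, and passed in none of the 6 fits without a library). The mean of the spleen libraries, 112 CPM, was at least 661-fold above a floor of 3 counts in the colon libraries. Spleen library c lay below that mean. The blocked fit called 4 of 8 red cell and platelet markers, all globins and all lower, and the copies of a globin cannot be split with certainty. The summed level of that marker list was 18.7, 2.11 and 1.04 CPM in colon and 1748, 2324 and 325 CPM in spleen.

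Stromal transcripts ran the other way. Dcn, which encodes the matrix proteoglycan decorin of fibroblasts, was at 0.169, 565 and 921 CPM in colon libraries a, b and c and at most 0.245 CPM in spleen (adjusted p = 0.0681). Sparc, a matrix protein gene among the 55, followed the same order, at 2.36, 57.6 and 129 CPM in colon and at most 0.123 CPM in spleen, which is no more than 3 counts a library (adjusted p = 0.0426, up to 0.305 in fits without a library). The summed level of 11 stromal, endothelial and glial markers was 105, 680 and 1111 CPM in colon and 83.7, 50.9 and 66.8 CPM in spleen, with Sox10 at 0 in all 6 libraries. Pecam1, which overlapped between the organs, made up most of the level in colon library a and in spleen. The 8 tested members had a median log2 fold change of 4.56, none passed, and 3 were called without the libraries a. Of 14 tested epithelial markers none passed, but the median was 2.90 and 13 lay above 0, beside 50.9% of all genes tested. Colon lay wholly above spleen in 5 of the 14, beside 8.09% of all genes tested. The summed level of the epithelial list, which overlapped, was 40.9, 27.2 and 50.4 CPM in colon and 14.6, 83.8 and 25.1 CPM in spleen. The myeloid list summed to 622, 308 and 305 CPM in colon and 401, 295 and 275 CPM in spleen. The part of these other cells in the gene lists above was not tested, and the values that follow are a description.

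Within the colon, Nr4a1 was in the same library order as Dcn, and Fosb, Tnfaip3 and Cd69 were highest in library a. Colon library a, with Dcn at 0.169 CPM, held Nr4a1 at 92.1, Fosb at 265, Tnfaip3 at 985 and Cd69 at 3594 CPM. Other markers differed in that library. Lum was at 0 and Col1a2 at 0.281 CPM, but Col3a1 was at 7.37, Postn at 9.12, Epcam at 14.4 and Lyz2 at 70.6 CPM. In spleen, Col3a1 and Postn were at 0, Epcam at most 4.43 and Lyz2 at most 7.44 CPM. Epcam and Lyz2 were higher in colon library a than in b and c. What these cells add to the levels in library a was not tested. In a fit without colon libraries b and c, chosen after the data were seen, 39 of the 56 passed the threshold. The genes had been called with library a included, so this fit is no independent test of them. Nor does it test what other cells add to their levels. Among those not called there were Sparc (4.95, adjusted p = 0.233) and Nfkbia (1.53, adjusted p = 0.122). That fit rests on 1 colon library, whose spread is assumed to be that of the other groups, and it called 137 genes, 50 higher and 87 lower.

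**Figure D3:**
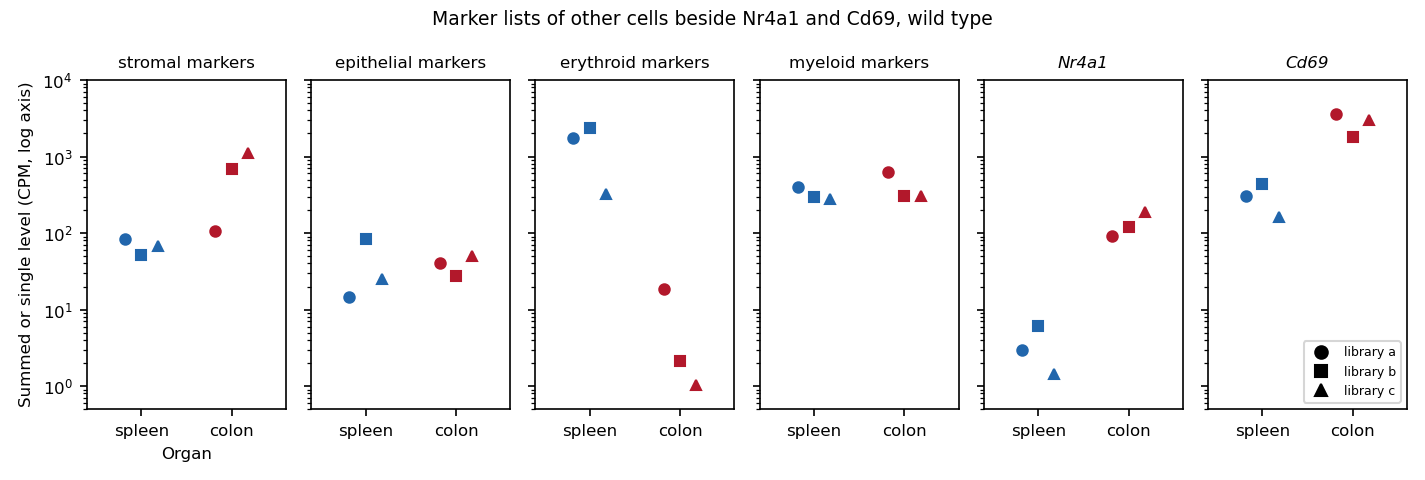
Summed level of 4 marker lists of other cells, and the level of Nr4a1 and Cd69, in each wild type library of spleen (blue) and colon (red), in CPM on a log axis. Symbols mark libraries a, b and c. Stromal markers in colon run from 105 CPM in library a to 1111 CPM in library c, while Cd69 is highest in library a, at 3594 CPM.

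The same organ comparison in CAR-deficient cells rests on 6 other libraries. These are not independent of the wild type ones: libraries of the same organ and ending deviated together across genotypes, with correlations of 0.193 to 0.4 over 6 pairs. There 72 genes were called (0.484%), 69 higher (0.464%) and 3 lower (0.0202%) in colon. Shared with the wild type comparison, in the same direction, were 43, which is 76.8% of the wild type genes and 59.7% of the CAR-deficient ones. All 56 wild type genes had the same sign in CAR-deficient cells, beside 68.7% of all genes tested. Of the 55 higher genes, 54 had all CAR-deficient colon libraries above spleen, beside 8.19% of all genes tested, and their median log2 fold change was 2.85 there against 3.00 in wild type. Tnfaip3 was at 1166, 1346 and 1015 CPM in CAR-deficient colon and 130, 111 and 71.5 CPM in CAR-deficient spleen. Nr4a1 was at 43.9, 84.9 and 177 CPM against 5.53, 7.43 and 3.62 CPM. The wild type genes that missed the threshold in CAR-deficient cells included Sgk1, a salt-sensitive kinase gene, at 198, 203 and 206 CPM in wild type colon against 42.3, 78 and 63.5 CPM in wild type spleen (1.73, adjusted p = 0.0112), and with 259, 161 and 176 CPM against 118, 83.4 and 142 CPM in CAR-deficient cells (0.79, adjusted p = 0.309).

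The test of the difference between genotypes called no gene in edgeR, with 184 genes at an unadjusted p under 0.05 (1.24%) and a smallest adjusted p of 1. limma called none either and DESeq2 called 8, none of them among the 56. Sgk1 and Nupr1 were the only ones of the 56 with an unadjusted edgeR p under 0.05 for this difference.

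**Figure D4:**
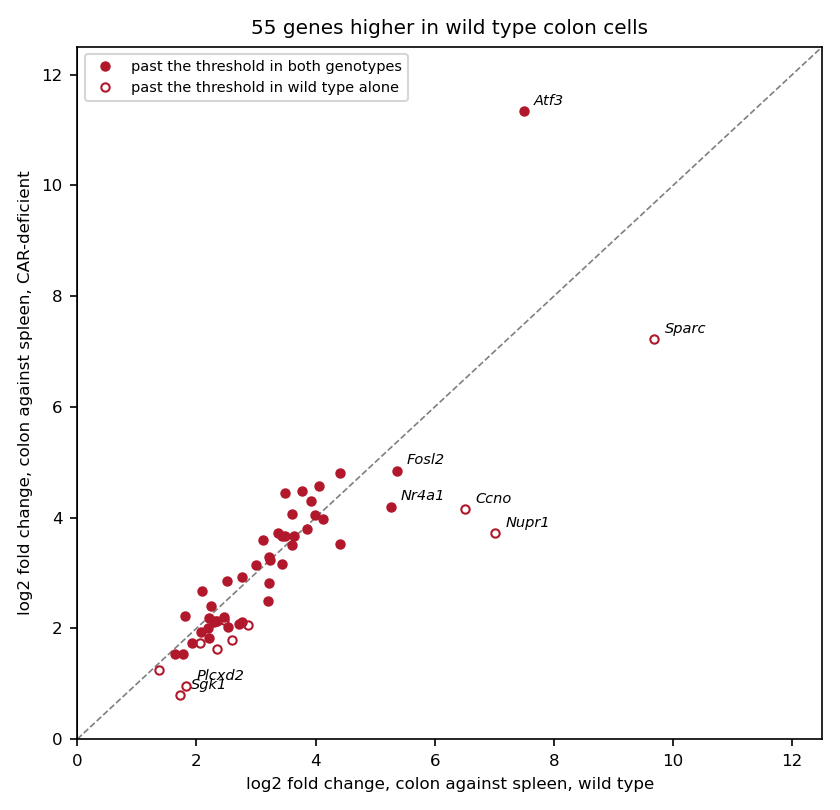
Log2 fold change between colon and spleen in wild type cells (horizontal) and in CAR-deficient cells (vertical) for the 55 genes higher in wild type colon. Filled points passed the threshold in both genotypes (43) and open points in wild type alone, Sparc, Atf3, Nupr1 and Ccno rest on few spleen counts, the dashed line marks equal values, and Hbb-bt is left out because its fitted value depends on how zeros are treated. All 55 points lie above 0 on both axes.

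Set against the wild type small intestine, the colon differed less. edgeR called no gene, with 639 at an unadjusted p under 0.05 (4.3%), while DESeq2 called 28 and limma 93. Both comparisons share the colon libraries, so their values are given side by side. Of the 55 genes, 51 had all small intestine libraries above the highest spleen library, beside 7.37% of all genes tested. The 55 were chosen as low in these same spleen libraries, so that count is a description. Nr4a1 was at 174, 130 and 234 CPM in small intestine (colon against small intestine -0.42), Cd69 at 3907, 1188 and 2021 CPM (0.23) and Tnfaip3 at 1038, 442 and 569 CPM (0.50). The median of the 55 was 0.63 against small intestine beside 0.02 over all genes, and 48 lay above 0 beside 51.3% of all genes. The 55 were also chosen as high in these same colon libraries, which raises both values. They and the unadjusted p-values that follow are therefore descriptions and no test of colon against small intestine. The lowest unadjusted edgeR p among the 55 belonged to Lmna, the nuclear lamina gene, at 34.9, 36.4 and 91.1 CPM in colon and 5.77, 1.59 and 11.4 CPM in small intestine (3.11, unadjusted p = 0.000289). Crem was at 158, 78.4 and 62.4 CPM in small intestine (2.38, unadjusted p = 0.00149), and Neurl3 at 27.7, 17.5 and 40.5 CPM in colon and 11.5, 5.27 and 7.85 CPM in small intestine (1.80, unadjusted p = 0.00286). Without the libraries a, 18 genes were called, all higher in colon and led by the matrix genes Lum and Dcn. In the libraries a left out, these 2 genes ran the other way. Dcn was at 0.169 CPM in colon and 257 CPM in small intestine there, and Lum at 0 and 132 CPM.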

How the data were processed

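The deposited table holds estimated counts per gene, with 36 TPM and length columns that were not used. Salmon, DESeq2 and the mm10 build are named in the submitters' processing notes, and the SMART-Seq v4 kit made the cDNA, per the labels. All 34162 gene IDs matched GENCODE vM21. Columns were tied to groups by name. The CD45.1-negative columns were taken as CAR-deficient by elimination, and the column endings carry no stated replicate number.

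The deposited expected counts were rounded. Genes were filtered with edgeR's filterByExpr (14876 kept), scaled by TMM and fitted as 6 group means over 18 libraries (glmQLFit, glmQLFTest, two-sided, Benjamini-Hochberg over all genes tested, threshold 0.05, common biological coefficient of variation 0.791). SE was computed as |log2 fold change| divided by the square root of F. The tools were edgeR 4.0.16, DESeq2 1.42.0 and limma 3.58.1 under R 4.3.3. The procedure was tested on simulated data. Those counts were drawn independently for each library, without the shared deviation of same-ending libraries, so they do not show how the fits handle it. Depth ran from 20666562 to 24693829 counts in the 6 libraries, where 3 counts correspond to 0.123 to 0.169 CPM.

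Pairing was checked by correlating deviations from group means between wild type colon and spleen libraries. The 3 same-ending pairs gave 0.219 to 0.289 and the 6 other pairs -0.283 to 0.117. The pairing is therefore read from the data, not from the labels. Deviations within a group sum to 0 for each gene, so the other pairs are not independent of the same-ending ones.

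The comparison and the 39 gene lists were chosen with earlier results of these data known, so list counts are descriptions and no list was tested. Named genes were the 12 largest called changes per direction with non-overlapping libraries and at least 5 CPM in a group, up to 5 called or 2 uncalled members per list, and a set of T cell genes. Alternatives covered scaling, filters, tools, blocks and left-out libraries.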

Additional observations from a re-analysis of the deposited data

How the results depend on the processing

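The count of 56 genes between wild type colon and spleen kept within 1.5 times under RLE scaling and both other filters. It was 294 with DESeq2 (270 higher, 24 lower), 789 with limma voom, 11 with only the groups compared, 124 without the libraries a and 137 without colon libraries b and c. With the ending as replicate block it was 144, and 73 with the replicate block and only the groups compared. Leaving out 1 library gave 13 to 49. The sign stayed the same under every alternative that tested a gene, and 55 of the 56 were tested in all 16. DESeq2, limma and the 18-library replicate block called all 56, and the replicate block with only the groups compared called 35 of them.

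For colon against small intestine, 0 became 28 with DESeq2, 93 with limma, 18 without the libraries a and 39 without colon libraries b and c. For CAR-deficient colon against spleen, 72 became 456 with DESeq2, 536 with limma, 171 with the replicate block, 18 with the replicate block and only the groups compared, 14 with only those groups and 143 without the libraries a, and leaving out 1 library gave 10 to 64. The genotype difference went from 0 to 8 with DESeq2 and to 5 without colon libraries b and c. Transcript length offsets were not run. The cause of these changes was not tested, and some of the fits hold fewer samples. A gene below about 3 counts in a library cannot be told from 0.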
